A study of Mus musculus with 10 samples.

Results

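Kdr, Flt1, Tek, Eng, Cldn5, Cdh5, Pecam1, Esam, Egfl7 and Adamts1 are 10 genes of retinal vascular endothelium, measured here in bulk RNA of the mouse retina. The members were chosen by name, as genes known for endothelial expression, and were looked up by Ensembl identifier. Earlier results of these data were known when they were chosen. The deposited gene table, with 11702 genes, held 8 of the 10. Cdh5 and Tek are not among its rows, and their counts were summed here from the deposited transcript table. All 10 were therefore measured, but at low levels for most: Cdh5 had 62 to 330 counts per library and Kdr 2793 to 18115.

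The 10 libraries came from retinas of female mice at P36. WT DMSO (W1 to W4, genotype WT) and rd10 DMSO (D1 to D3) received vehicle, and rd10 HAL (H1 to H3) received halofantrine, an antimalarial drug, at 20 μM. Each injection was 1 μL into the vitreous, given at P10 and again at P24 in every group. The rd10 mice, of the strain B6.CXB1-Pde6brd10/J, are mutant for the phosphodiesterase gene Pde6b, which rods need for their light response, and their rods degenerate. By the labels, batch 2 is made up of H2, H3 and D3, and the 7 other libraries, with all of WT, form batch 1, so that genotype and batch overlap in part. The titles also carry a set name whose meaning is not given: set1 for W1 to W3, set1_5 for W4, set2 for D1, D2 and H1, last for H2 and H3 and final for D3. Genotype and set name cannot be told apart within batch 1, nor treatment and set name within batch 2.

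The retina has an inner vascular network whose endothelial cells form the inner blood-retina barrier, sealed by tight junctions and covered by pericytes, while the photoreceptors are served from the fenestrated vessels of the choroid. Vascular endothelial growth factor (VEGF) binds the receptor kinases encoded by Kdr and Flt1, and angiopoietins bind the kinase encoded by Tek. Loss of photoreceptors in inherited degeneration is known to be accompanied by thinning of the retinal vessels. Kdr is also known to be expressed by retinal neurons and glia, so its RNA in whole retina does not stand for endothelium alone.

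The gene counts of a library summed to between 15512212 (D3) and 38160436 (D2). Levels are given as CPM, a gene's counts relative to the counts of its library, with TMM factors from all 10 libraries. The Pde6b level of W1 to W3 was 2699 to 2855 CPM. It was 125 to 387 CPM in the rd10 libraries and 93.1 CPM in the library labelled WT W4. The summed level of 11 rod markers was 77188 to 81193 CPM in W1 to W3, 3834 to 11328 CPM in rd10 and 2985 CPM in the library labelled WT W4. That library therefore goes against its label, and the comparisons of the endothelial genes with WT are given with it and without it.

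The endothelial genes in the library labelled WT W4 lay among the rd10 values. Its level was within the range of the 6 rd10 libraries for 8 of 10 genes, a position that 76.1% of all genes shared, and above W1 to W3 for 6 of 10. The exceptions to the first count were Cdh5, at 6.35 CPM, and Tek, at 6.57 CPM, both below every rd10 library.

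**Figure D1:**
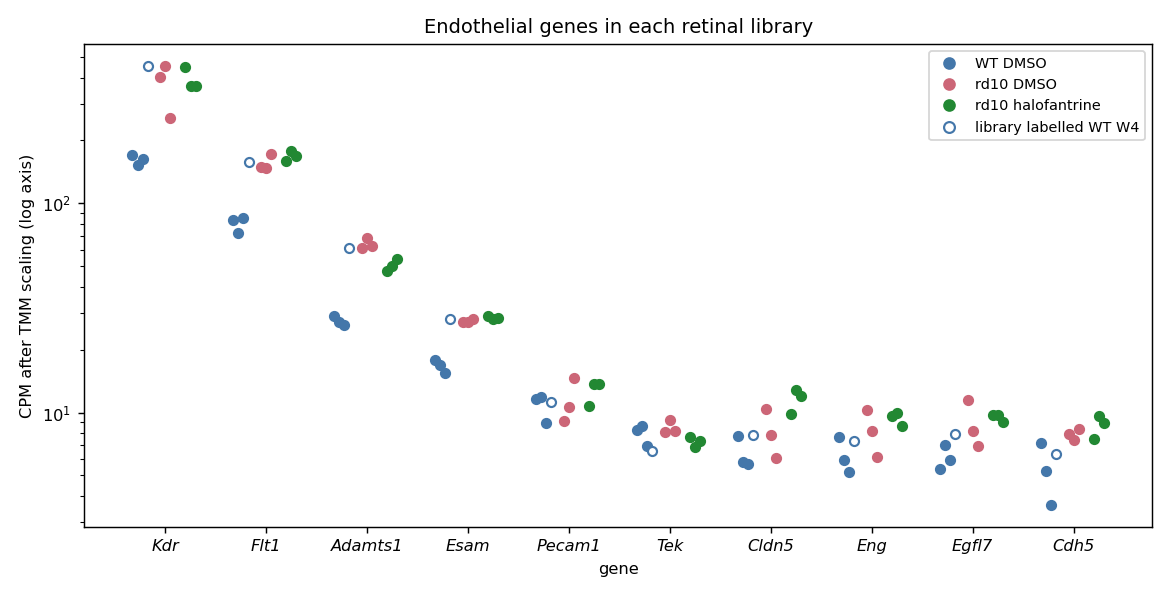
Level of each endothelial gene in each of the 10 libraries, as CPM after TMM scaling on a log axis, with 1 point per library and colours for the 3 groups; the open point is the library labelled WT W4. Kdr, Flt1, Adamts1 and Esam show rd10 points above all of W1 to W3 with the open point among them, and the rd10 and WT points of Pecam1 and Tek overlap.

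The receptors for VEGF gave the highest levels. Kdr encodes the main signalling receptor of VEGF-A. Its level was 170.0, 153 and 163 CPM in W1 to W3 and 454 CPM in the library labelled WT W4. In rd10 DMSO it was 403, 454 and 256 CPM in D1 to D3, and in rd10 HAL 451, 363 and 363 CPM in H1 to H3. Every rd10 library was above W1 to W3, and D3 was the lowest of the 6. Flt1 encodes a receptor that binds VEGF-A tightly and signals weakly. It had 83.1, 71.9 and 85.4 CPM in W1 to W3, 149.9, 148 and 173 CPM in rd10 DMSO and 160.1, 178 and 168 CPM in rd10 HAL, with 158 CPM in the library labelled WT W4. All rd10 libraries were above W1 to W3, the DMSO and halofantrine libraries overlapped, and D3, the lowest in Kdr, was the highest rd10 DMSO library in Flt1.

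The other 2 receptor genes were low. Tek encodes the angiopoietin receptor Tie2. It had 8.25, 8.62 and 6.94 CPM in W1 to W3, 8.11, 9.21 and 8.12 CPM in rd10 DMSO and 7.66, 6.83 and 7.34 CPM in rd10 HAL. The 3 groups overlapped or adjoined, and the rd10 HAL libraries were all below the rd10 DMSO libraries. Eng encodes endoglin, a co-receptor for the BMP and TGF-beta ligands of endothelium. It had 7.64, 5.90 and 5.19 CPM in W1 to W3, 10.3, 8.15 and 6.15 CPM in rd10 DMSO and 9.59, 9.91 and 8.62 CPM in rd10 HAL. D3 lay within the range of W1 to W3 and the halofantrine libraries above it.

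Among the junction and adhesion genes, Cldn5 encodes the claudin of endothelial tight junctions. It had 7.69, 5.80 and 5.66 CPM in W1 to W3, 10.4, 7.80 and 6.09 CPM in rd10 DMSO and 9.81, 12.8 and 12.0 CPM in rd10 HAL. The rd10 DMSO libraries spanned a range that reached into both other groups. Cdh5 encodes VE-cadherin of the adherens junction. It had 7.16, 5.24 and 3.62 CPM in W1 to W3, 7.87, 7.38 and 8.30 CPM in rd10 DMSO and 7.48, 9.59 and 8.92 CPM in rd10 HAL, with all rd10 libraries above W1 to W3. Pecam1 encodes the adhesion molecule CD31. It had 11.6, 11.8 and 8.93 CPM in W1 to W3, 9.14, 10.6 and 14.6 CPM in rd10 DMSO and 10.7, 13.7 and 13.7 CPM in rd10 HAL. The groups overlapped, and the 3 highest values were those of batch 2. Esam encodes an adhesion molecule of endothelial junctions. It had 17.8, 16.9 and 15.5 CPM in W1 to W3, 27.2, 27.2 and 27.9 CPM in rd10 DMSO and 29.0, 28.1 and 28.3 CPM in rd10 HAL, the tightest rd10 values of the 10 genes.

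The secreted products were those of Egfl7 and Adamts1. Egfl7 encodes an endothelial matrix protein. It had 5.36, 7.01 and 5.95 CPM in W1 to W3, 11.4, 8.15 and 6.89 CPM in rd10 DMSO and 9.77, 9.71 and 9.01 CPM in rd10 HAL. D3 was inside the WT range and the 5 other rd10 libraries were above it. Adamts1 encodes a metalloprotease that cleaves proteoglycans of the matrix. It had 28.8, 27.2 and 26.2 CPM in W1 to W3, 61.0, 68.5 and 62.3 CPM in rd10 DMSO and 47.7, 50.3 and 54.0 CPM in rd10 HAL. Its 3 groups were fully separate, with halofantrine between WT and rd10 DMSO, and the library labelled WT W4 was at 60.9 CPM.

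Levels can be compared between genes only per length, here as CPM per kilobase of transcript, each library's length weighted by its isoforms. Only counts on reference transcripts enter. Part of the Egfl7 counts lay outside these, so the level of Egfl7 per length is too low here. Kdr was highest at 27.6 ± 1.42 in W1 to W3 and 63.0 ± 17.4 in rd10 DMSO (SD, n = 3). Flt1 followed at 12.6 ± 1.39 and 24.4 ± 2.22, then Esam at 11.0 ± 0.50 and 17.3 ± 0.63. In W1 to W3 Flt1 and Esam did not differ beyond their spread. Adamts1 was at 6.78 ± 0.42 and Egfl7 at 6.38 ± 1.34 in W1 to W3, again within their spread, and at 16.0 ± 0.95 and 8.90 ± 1.04 in rd10 DMSO. Cldn5 (4.51 ± 0.80), Pecam1 (3.39 ± 0.48), Eng (2.01 ± 0.40), Tek (1.81 ± 0.20) and Cdh5 (1.34 ± 0.44) closed the order in W1 to W3. There the ranges of Egfl7 and Cldn5 overlapped, as did those of Eng and Tek, of Tek and Cdh5 and of Eng and Cdh5. The level of Kdr per length was 20.6 times that of Cdh5 in W1 to W3 and 32.1 times in rd10 DMSO. Flt1 was 9.42 and 12.4 times Cdh5 on the same scale, whereas the ratio of Eng to Cdh5 was 1.51 and 1.54. The panel thus covered a wide span of levels per length for genes that share a cell type by name.

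**Figure D2:**
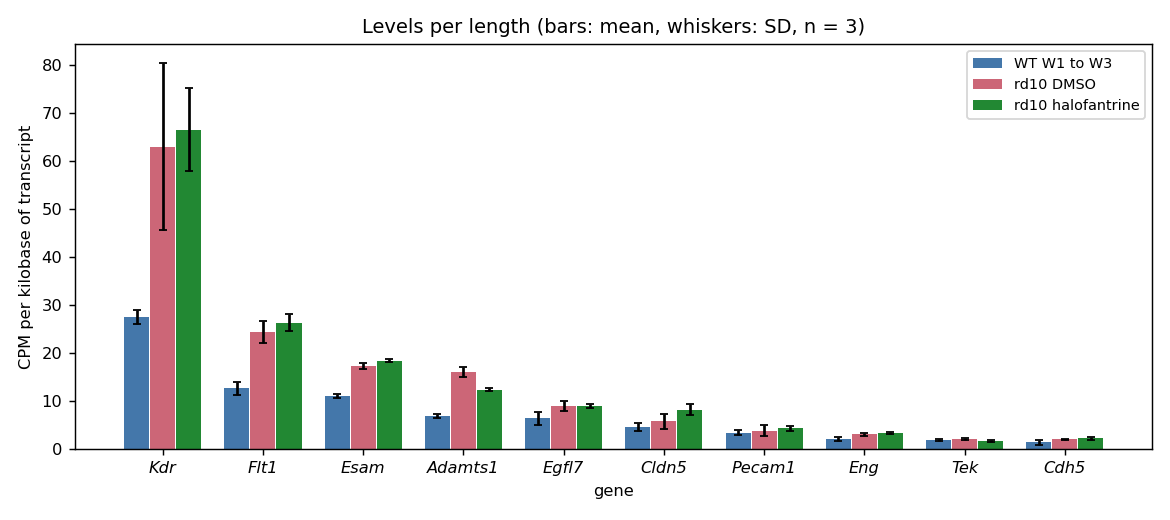
Mean level of each endothelial gene in CPM per kilobase of transcript for W1 to W3, rd10 DMSO and rd10 HAL, with whiskers for the SD over 3 libraries. Kdr stands at 27.6 in W1 to W3 and 63.0 in rd10 DMSO, and Tek and Cdh5 are at or below 2.17 in each group.

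Comparison of rd10 DMSO with WT addressed how endothelial RNA stood after rod loss. With all 4 WT libraries, edgeR's quasi-likelihood test called 0 of the 8 endothelial genes in the gene table, against a background of 0% of 11698 genes. At an unadjusted p under 0.05 it had 3108 genes, and DESeq2 called 589. All 8 fold changes were above 0, from 0.07 for Pecam1 to 0.84 for Adamts1 on the log2 scale, with Benjamini-Hochberg adjusted p-values of 0.19 to 0.81. P-values here set a difference against the spread between libraries, which in this fit includes the library labelled WT W4.

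Without the library labelled WT W4, 4 of the 8 rose and 0 fell: Kdr, Flt1, Esam and Adamts1. In that fit 62.2% of 11696 genes were called, 32.3% as higher, against which 4 of 8 is to be read. Adamts1 was higher by a log2 fold change of 1.23 (SE 0.07, adjusted p = 2.2e-05), Kdr by 1.21 (SE 0.19, adjusted p = 0.0012), Flt1 by 0.98 (SE 0.09, adjusted p = 0.0001) and Esam by 0.72 (SE 0.08, adjusted p = 0.0002). Each was higher in 3 of 3 rd10 DMSO libraries than in all of W1 to W3. The 4 other genes had fold changes of 0.55 (SE 0.22, adjusted p = 0.06) for Egfl7, 0.41 for Eng, 0.36 for Cldn5 and 0.09 (SE 0.20, adjusted p = 0.73) for Pecam1. On counts summed from transcripts, where 26.9% of genes were called higher, Cdh5 stood at 0.52 (SE 0.23, adjusted p = 0.1) and Tek at 0.07 (SE 0.14, adjusted p = 0.7). The median over the 8 was 0.63, beside -0.01 over all genes tested.

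The values within batch 1, from D1 and D2 against W1 to W3, were led by the same 4 genes. The mean difference in log2 CPM was 1.40 for Kdr, 1.24 for Adamts1, 0.90 for Flt1 and 0.70 for Esam. It was 0.66 for Egfl7, 0.57 for Eng, 0.56 for Cdh5, 0.50 for Cldn5, 0.13 for Tek and -0.12 for Pecam1. With 3 libraries against 3, an exact permutation test over libraries cannot go below p = 0.1 and gave that value for Kdr, Flt1, Esam, Cdh5 and Adamts1, the 5 of 10 genes with all of rd10 DMSO above W1 to W3. Of all genes 33.6% had that pattern.

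The comparison of rd10 HAL with WT shares the WT libraries, so its values are set beside the above and not counted as a second observation. With 4 WT libraries edgeR called 0 of 8 endothelial genes, beside 0.00855% of 11699 genes, with 4050 genes at an unadjusted p under 0.05. DESeq2 called 2221 genes in the same libraries, Cldn5, Egfl7 and Eng among them. Without the library labelled WT W4 7 of 8 rose and 0 fell, where 71.9% of 11699 genes were called and 35.7% as higher. Kdr was higher by a log2 fold change of 1.27 (SE 0.09, adjusted p = 4.6e-06 in edgeR), Flt1 by 1.07 (SE 0.07, adjusted p = 3.4e-06), Adamts1 by 0.89 (SE 0.07), Cldn5 by 0.85 (SE 0.16, adjusted p = 0.0013), Esam by 0.76 (SE 0.07), Egfl7 by 0.64 (SE 0.14) and Eng by 0.58 (SE 0.16, adjusted p = 0.01). Pecam1 was at 0.24 (SE 0.14, adjusted p = 0.17). On transcript sums, with 30.9% of genes called higher, Cdh5 rose by 0.67 (SE 0.22, adjusted p = 0.026) and Tek was at -0.15 (SE 0.12, adjusted p = 0.32). All 3 halofantrine libraries lay above W1 to W3 for 8 of 10 genes, a pattern of 37.6% of all genes. The exceptions were Pecam1 and Tek. Of the halofantrine libraries only H1 shares batch 1 with WT, and its difference from W1 to W3 was 1.48 for Kdr, 1.00 for Flt1, 0.80 for Adamts1, 0.79 for Esam, 0.63 for Cldn5 and 0.0048 for Pecam1 in log2 CPM.

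**Figure D3:**
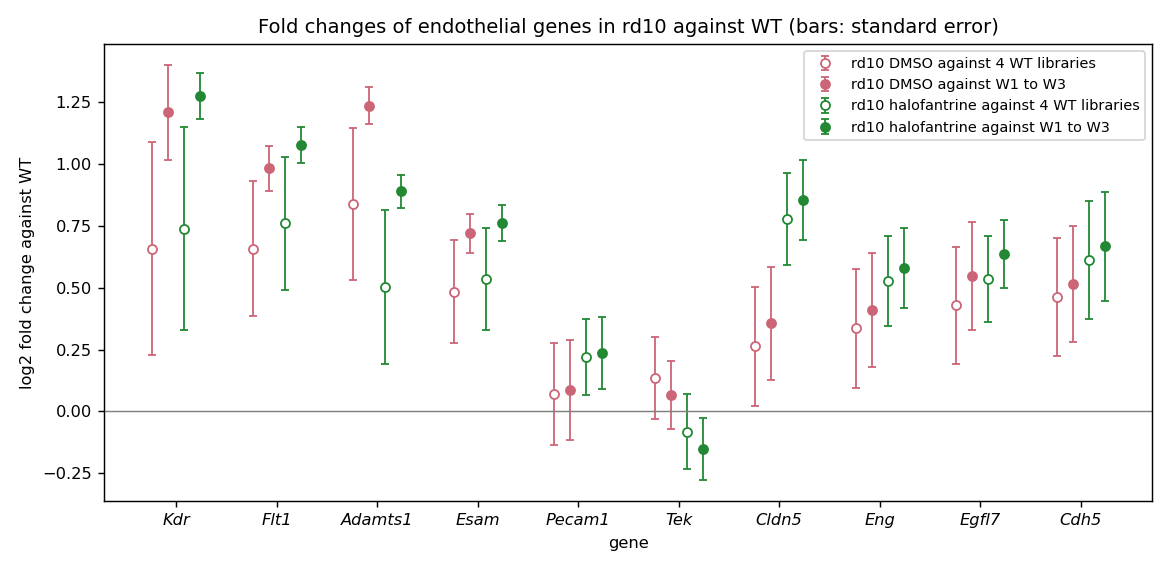
Log2 fold change of each endothelial gene against WT with its standard error, for rd10 DMSO and rd10 HAL, with all 4 WT libraries (open points) and with W1 to W3 (filled points); Cdh5 and Tek come from transcript sums. The filled points of Kdr, Flt1 and Adamts1 lie higher and have shorter bars than the open ones, and the points of Pecam1 and Tek lie nearest 0.

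The scaling bears on these directions. Rod RNA made up a large share of W1 to W3, and in bulk RNA a larger share of endothelial cells and more RNA per cell cannot be told apart. Of the inner retinal neuron list, 23 of 27 tested genes rose in rd10 DMSO without the library labelled WT W4. In the same fit 4 of 8 endothelial genes and 32.3% of all genes were called higher, and the lists were not tested against each other. The summed level of the inner neuron list was 4054 to 4257 CPM in W1 to W3, 5952 to 6731 CPM in rd10 DMSO and 6584 to 6962 CPM in rd10 HAL. When libraries were scaled on that list, the median of all genes stood at -0.64 in rd10 DMSO and -0.74 in rd10 HAL. On that scale without the library labelled WT W4, the median of the 8 endothelial genes in rd10 DMSO was 0.00. Of these genes 3 were called higher, where 7.05% of all genes were, and 0 lower, where 71.1% were. Kdr stayed higher at 0.56 (adjusted p = 0.01 in edgeR), Adamts1 at 0.61 (adjusted p = 0.00033) and Flt1 at 0.36 (adjusted p = 0.033). Esam was at 0.09, while Cldn5 (-0.28), Eng (-0.23), Egfl7 (-0.09) and Pecam1 (-0.52) changed sign without passing. In rd10 HAL 2 were called higher and 1 lower, where 6.44% and 77.4% of all genes were. Kdr (0.55, adjusted p = 0.00015) and Flt1 (0.35, adjusted p = 0.0023) stayed higher, Adamts1 was at 0.16 (adjusted p = 0.056) and Pecam1 fell at -0.49 (adjusted p = 0.012). All of these lie above the median of all genes on that scale.

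Comparison of halofantrine with DMSO within rd10 addressed the response of endothelial genes to the drug. edgeR called 0 of the 8 endothelial genes and 0% of 11692 genes, with 557 genes at an unadjusted p under 0.05 and 3 called by DESeq2. The 2 genes farthest from 0 were Cldn5, with a log2 fold change of 0.51 (SE 0.21, adjusted p = 0.88), and Adamts1, at -0.34 (SE 0.07, adjusted p = 0.88). Eng was at 0.18 (SE 0.19), Pecam1 at 0.16 (SE 0.19), Flt1 at 0.10 (SE 0.08), Egfl7 at 0.10 (SE 0.19), Kdr at 0.08 (SE 0.20) and Esam at 0.05 (SE 0.06), with adjusted p-values up to 0.96. Over the alternatives the value ranged from 0.32 to 0.73 for Cldn5, 0.03 to 0.38 for Eng, 0.01 to 0.37 for Pecam1 and 0.05 to 0.18 for Flt1. From transcript sums Cdh5 was at 0.15 (SE 0.14) and Tek at -0.22 (SE 0.12). The median over the 8 was 0.10.

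The groups were separate for 3 of 10 genes, where 13.1% of all genes were. All halofantrine libraries were below all DMSO libraries for Adamts1 and Tek, and above for Esam by a difference of 0.05 in log2 CPM. For Adamts1 the difference held in both batches, -0.44 in batch 1 and -0.26 in batch 2, and for Tek it was -0.17 and -0.20. Cldn5 differed by 0.12 in batch 1 and by 1.02 in batch 2, where the single DMSO library is D3. Eng (0.06 and 0.58), Kdr (0.07 and 0.50) and Egfl7 (0.02 and 0.44) also had their larger difference in batch 2. The sign was the same in both batches for 7 of 10 genes, and the share over all genes was not taken. These differences rest on a single halofantrine library in batch 1 (H1) and a single DMSO library in batch 2 (D3). Without D3, Kdr was at -0.13 and Egfl7 at -0.03.

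Beside Cldn5, Eng and Egfl7 stands their base composition. Their transcripts have a GC content of 60.5%, 58.3% and 57.5%, at percentiles 97.5, 91.9 and 88.7 of all genes, against 49.4% for Kdr and 49.1% for Flt1. With a GC trend removed from each library, the halofantrine difference was 0.32 for Cldn5, 0.07 for Eng and 0.01 for Egfl7. Kdr, without a high GC content, also had its larger difference in batch 2 (0.07 and 0.50). The part of base composition in these differences was not tested. Blood markers were high in the pair of halofantrine libraries of batch 2, with a summed level of 109.5 and 90.8 CPM in H2 and H3, against 17.1 CPM in H1 and 21.1 to 37.3 CPM in rd10 DMSO, with Slc4a1 at or near 0. Of 3 blood markers tested 0 were called in halofantrine against DMSO, and their median of 1.45 on the log2 scale became 0.60 with a batch term. Their part in the Cldn5 difference was not tested.

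**Figure D4:**
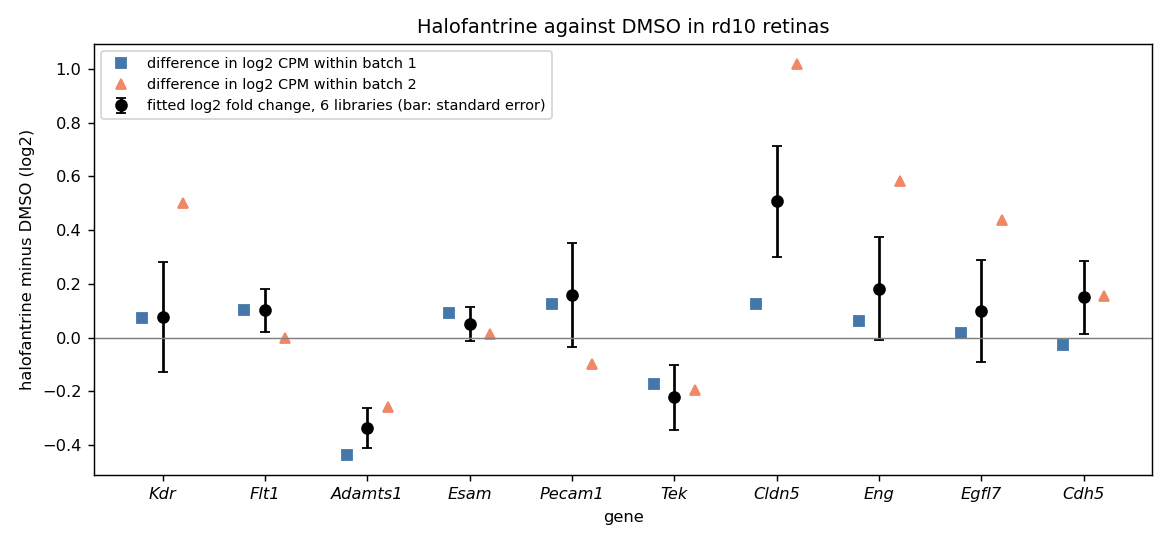
Halofantrine minus DMSO in rd10 for each endothelial gene on the log2 scale, as the fitted fold change over 6 libraries with its standard error and as the difference in mean log2 CPM within batch 1 and within batch 2. Cldn5 lies at 0.12 within batch 1 and 1.02 within batch 2, and Adamts1 and Tek lie below 0 in all 3 values.

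Batch 2 was compared with batch 1 among the 6 rd10 libraries with treatment as a term. Of the 8 genes 1 was called, where 4.63% of 11698 genes were. Kdr fell by 0.53 on the log2 scale (SE 0.10, adjusted p = 0.035 in edgeR). The batch 1 libraries had 403, 454 and 451 CPM and the batch 2 libraries 256, 363 and 363 CPM, without overlap. Pecam1 was at 0.45 (SE 0.11, adjusted p = 0.067), with 9.14 to 10.7 CPM in batch 1 and 13.7 to 14.6 CPM in batch 2. The 6 other genes lay between -0.30 for Eng and 0.16 for Flt1. All 11 rod markers were higher in batch 2, at a median of 1.23. The call for Kdr was lost when D1, D2, D3, H2 or H3 was left out, with adjusted p-values of 0.057 to 0.15, and kept without H1 (adjusted p = 0.0039).

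Across the 10 libraries the endothelial genes followed a shared pattern only in part. The 45 pairs had a median Pearson r of 0.64 in log2 CPM, from -0.29 to 0.97, which the WT and rd10 difference and the batch enter. Over the 6 rd10 libraries the median was -0.08, and 10 of 45 pairs were over 0.5. There Eng and Egfl7 had r = 0.96, Pecam1 and Flt1 0.90 and Cldn5 and Eng 0.84, whereas Kdr and Flt1, receptors of the same ligand, had -0.68 and Pecam1 and Kdr -0.75. Other genes were compared with the mean standardized level of the 8 endothelial genes in the gene table. Over 10 libraries the most alike were Arhgap27 (r = 0.992), Tmeff2, Adcy8, Klf13, Atxn10, Galnt18, Car5b, Tunar, Vwf and Spsb4 (r = 0.985). These points share 3 groups and 10 libraries, so the r values are descriptions. Vwf, which encodes von Willebrand factor of endothelial storage granules, was the only gene among them from the endothelial lists. Without the library labelled WT W4, 7 of the 10 were again among the 10 most alike, and Vwf was not. Over the 6 rd10 libraries, only Galnt18 of them was among the 10 most alike.

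Isoforms were read from the transcript table, and 16 transcripts of 6 genes took enough counts to be compared. Flt1 is known to give a full-length receptor and a short soluble form that binds VEGF without signalling. In the reference transcripts Flt1-202 encodes 1333 residues and Flt1-203 encodes 688. Flt1-203 took 30.9%, 29.7% and 33.4% of Flt1 counts in W1 to W3, 27.0%, 22.4% and 29.9% in rd10 DMSO and 25.7%, 32.3% and 29.4% in rd10 HAL. The share in rd10 DMSO differed from that of all 4 WT libraries by -3.74 percentage points (exact permutation p = 0.286, adjusted p = 0.768 over 48 tests). These exact tests cannot go below p = 0.1 for halofantrine against DMSO or p = 0.057 against 4 WT libraries, so none of the 48 could pass, and 9 were at that limit. In halofantrine against DMSO 5 of 16 were, 3 of them shares of Egfl7 that depend on each other, where 14.4% of 16239 transcripts compared in the same way had groups that did not overlap. Among the 5 was Egfl7-202, with 17.5%, 23.4% and 21.7% of the Egfl7 counts on reference transcripts in rd10 DMSO and 35.9%, 52.0% and 38.9% in rd10 HAL (difference 21.4 percentage points, exact permutation p = 0.1, adjusted p = 0.533). Its share of all Egfl7 counts was smaller, with 35.5 counts in D1 where the gene had 279. Pecam1-207 differed by -16.2 points and Eng-202 by 20.5 points at the same p. Egfl7-202 rested on few counts, 22.1 to 155 per rd10 library. Kdr-201 held 97.9% to 99.3% of Kdr counts in every library. The shares of Tek isoforms moved between 3.9% and 71.1% for Tek-201 over the libraries and were not read further.

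The other genes of the endothelium and its signals are given by list, for the gene table without the library labelled WT W4. With all 4 WT libraries edgeR called 0 genes of each of these lists, and of the lists of other cells named after them, in rd10 DMSO and in rd10 HAL. The background without W4 was 32.3% of genes called higher and 29.9% lower in rd10 DMSO, and 35.7% and 36.2% in rd10 HAL. The inner neuron scale lowers all genes alike, and counts on it are to be read against 7.05% of genes called higher and 71.1% lower in rd10 DMSO, and 6.44% and 77.4% in rd10 HAL. Of 10 other endothelial identity genes tested, 5 rose in rd10 DMSO and 1 fell. Vwf rose by 1.73 (SE 0.18, adjusted p = 0.00015 in edgeR), from 6.94 to 9.72 CPM in W1 to W3 to 21.5 to 31.2 CPM in rd10 DMSO, and Cd34, a sialomucin of endothelial and stem cells, by 0.66. Podxl, which encodes podocalyxin and is also known in neurons and podocytes, fell by 1.52 on the log2 scale. The list's median was 0.41, beside -0.01 for all genes, and 6 rose and 1 fell in rd10 HAL. On the inner neuron scale 1 was called higher and 3 lower (Podxl, Itm2a and Ly6c1) in rd10 DMSO, and 1 and 6 in rd10 HAL. Of 9 genes of the VEGF, angiopoietin, Notch and BMP9 pathways, 6 rose and 1 fell. Nrp2 and Nrp1, co-receptors of VEGF, rose by 0.93 and 0.92, Notch1 by 1.19, and Jag1, a Notch ligand, fell by 2.18 on the log2 scale. Vegfa, the ligand of Kdr and Flt1, was at 143 to 189 CPM in W1 to W3, 187 to 222 CPM in rd10 DMSO and 182 to 228 CPM in rd10 HAL, and rose by 0.34 (SE 0.11, adjusted p = 0.033) in rd10 DMSO. On the inner neuron scale 2 genes of this list were called higher and 2 lower in rd10 DMSO and 3 and 3 in rd10 HAL, with Vegfa lower in both.

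Norrin and Wnt signalling, which maintains the retinal barrier, had 4 genes that rose and 1 that fell of 8 tested. Lrp5 rose by 1.11 and Ndp, the Norrin gene expressed by Müller glia, by 0.95, while Fzd4, its receptor, fell by 0.86 on the log2 scale. Of 12 barrier genes 6 rose and 3 fell. Slc7a5, an amino acid transporter, rose by 1.02 and Mfsd2a, a lipid transporter of barrier endothelium, by 1.58, and Slc16a1, a lactate transporter, Slco1c1, a thyroxine transporter, and Jam2, a junction protein, fell by 1.37, 1.21 and 0.67 on the log2 scale. Of 5 ADAMTS proteases tested 4 rose, Adamts1, Adamts5 (1.11), Adamts10 (0.83) and Adamts18 (0.49), and Adamts3 fell by 1.55 on the log2 scale. On the inner neuron scale, where 71.1% of all genes were called lower in rd10 DMSO and 77.4% in rd10 HAL, the counts were 1 higher and 4 lower for Norrin and Wnt signalling in each rd10 group, 3 and 7 for the barrier genes in rd10 DMSO and 2 and 8 in rd10 HAL, and 2 and 1 for the ADAMTS proteases in rd10 DMSO and 1 and 1 in rd10 HAL. In halofantrine against DMSO none of these lists had a called gene, beside 0% of all genes.

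Markers of other cells that a retina preparation can hold were read beside these. Of 4 pericyte and smooth muscle markers tested, 3 rose without the library labelled WT W4, Pdgfrb by 1.11, Rgs5 by 0.52 and Abcc9 by 0.56. Vtn, which is also known in photoreceptors, fell by 2.75 on the log2 scale. On the inner neuron scale 1 was called higher and 1 lower in rd10 DMSO and 1 and 2 in rd10 HAL, where 71.1% and 77.4% of all genes were called lower. The list of 16 summed to 959 to 1018 CPM in W1 to W3 and 299.8 to 432 CPM in rd10 DMSO, a fall carried by Vtn, and the 15 others summed to 127 to 146 CPM in W1 to W3, 201 to 267 CPM in rd10 DMSO and 189.7 to 201 CPM in rd10 HAL, with Cnn1 at or near 0. The smooth muscle genes of the list set D1 and D3 apart. Acta2, smooth muscle actin, was at 29.0 CPM in D1 and 34.6 CPM in D3, 4.37 CPM in D2 and 2.06 to 5.40 CPM in the other libraries. Myh11, smooth muscle myosin, was at 30.4 CPM in D1, 33.8 CPM in D3 and 3.69 CPM in D2. Dcn, a proteoglycan of connective tissue, was at 12.5 CPM in D1, 23.6 CPM in D3 and 1.63 CPM in D2, and the 8 fibroblast markers summed to 275, 72.9 and 222 CPM in D1 to D3, 27.2, 33.2 and 116 CPM in W1 to W3 and 124 to 150 CPM in rd10 HAL. Of 7 pigment epithelium markers 4 rose in rd10 DMSO, and their list of 10 summed to 425 to 658 CPM in W1 to W3, 704 to 1252 CPM in rd10 DMSO and 566 to 810 CPM in rd10 HAL. A large part of these sums was Rlbp1, which is also in the Müller glia list. Rlbp1 was at 338 to 415 CPM in W1 to W3, 417 to 529 CPM in rd10 DMSO and 386 to 541 CPM in rd10 HAL. The other pigment epithelium markers, all but Best1, were higher in W3 than in D2, so the separate sums do not hold without Rlbp1. Plvap, a marker of the fenestrated endothelium of the choroid, had 2.66, 3.23 and 3.68 CPM in W1 to W3, 10.6, 6.10 and 3.94 CPM in rd10 DMSO and 7.25, 8.55 and 7.13 CPM in rd10 HAL. D1, the highest rd10 DMSO library in Plvap, was also the highest of that group in Cldn5, Eng and Egfl7, and D3 the lowest in all 4. Over the 10 endothelial genes D1 was the highest of the group in 3 and the lowest in 4, and D3 the highest in 4 and the lowest in 4. The 10 pigment epithelium markers summed to 1252, 704 and 1035 CPM in D1 to D3, of which Rlbp1 made up 529, 509 and 417 CPM. D1 was the highest of these libraries in 7 of the 10 and D3 in 3, Tyrp1 and Pmel among them, and D2 was the lowest in 8. The part of smooth muscle, connective or pigmented tissue in the endothelial values of D1 and D3 was not tested. Of the markers of Müller glia, which span the retina, 10 of 10 rose in rd10 DMSO and 9 of 10 in rd10 HAL without the library labelled WT W4. On the inner neuron scale 4 were called higher and 0 lower in rd10 DMSO, and 5 and 1 (Rlbp1) in rd10 HAL. There 7.05% of all genes were called higher and 71.1% lower in rd10 DMSO, and 6.44% and 77.4% in rd10 HAL. The summed level of these markers was 4054 to 4291 CPM in W1 to W3, 6275 to 7281 CPM in rd10 DMSO and 6677 to 7242 CPM in rd10 HAL. The part of Müller glia in the level of Kdr was not tested. For microglia 6 of 6 markers and for gliosis 10 of 10 rose in rd10 DMSO.

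**Figure D5:**
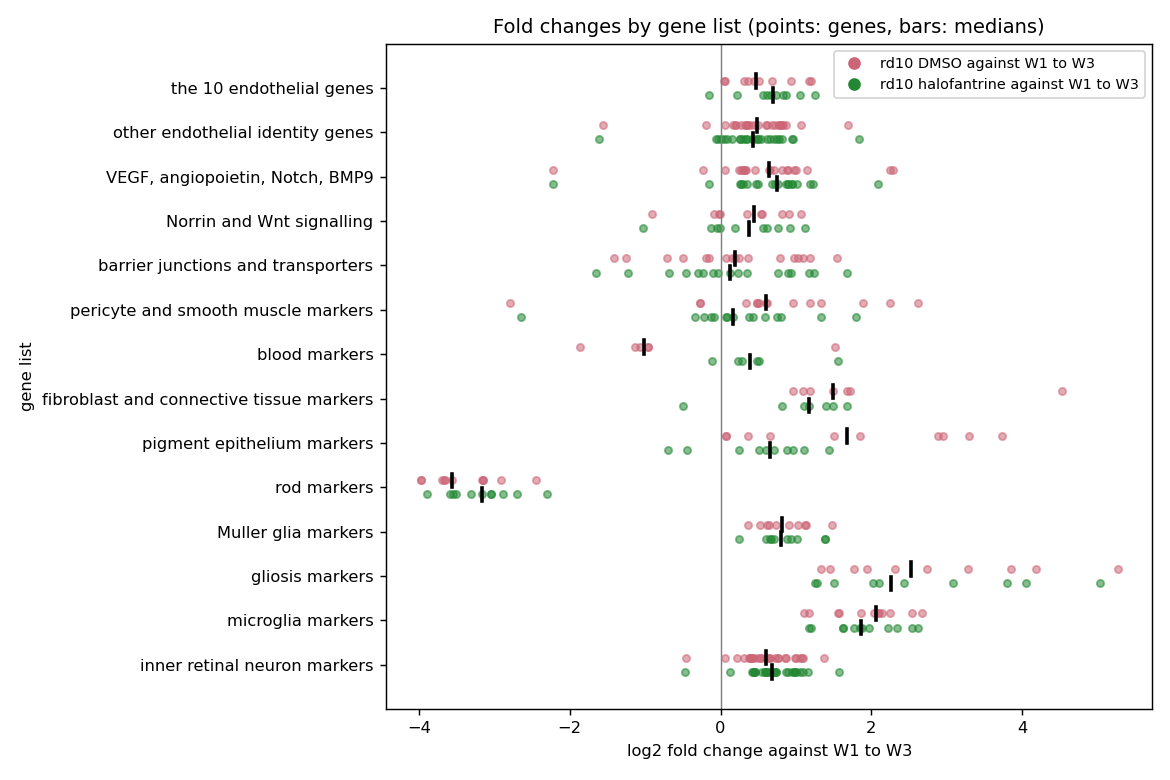
Log2 fold change against W1 to W3 of each gene (points) and the median (bars) by gene list, for rd10 DMSO and rd10 HAL, from counts summed from transcripts. The median of the 10 endothelial genes is 0.48 in rd10 DMSO and 0.70 in rd10 HAL, near the 0.61 and 0.68 of inner retinal neuron markers. The medians of rod markers lie far below 0 and those of gliosis markers above 2.

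Promoters were read as 250 bases before to 50 bases after the RefSeq gene start (GRCm38.p6). The table held 9 windows for 7 of the genes. Windows are printed below for the genes that rose in both rd10 groups without the library labelled WT W4 and have an entry (Kdr, Flt1 and Adamts1), 5′ to 3′ on the strand of the gene, with the letters AGGAAG or CGGAAG, or their reverse complements, in capitals. Those letters are 2 of the longer forms that ETS factors, which act in endothelium, bind around their core GGAA. Kdr is on the minus strand at chr5:75978406-75978705, Flt1 on the minus strand at chr5:147725962-147726261 and Adamts1 on the minus strand at chr16:85803064-85803363.
Kdr: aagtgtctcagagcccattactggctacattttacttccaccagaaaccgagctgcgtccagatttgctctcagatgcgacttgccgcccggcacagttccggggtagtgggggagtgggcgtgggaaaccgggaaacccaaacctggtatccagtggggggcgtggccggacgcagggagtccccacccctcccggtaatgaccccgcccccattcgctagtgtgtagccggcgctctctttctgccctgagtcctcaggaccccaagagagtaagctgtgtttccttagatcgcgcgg
Flt1: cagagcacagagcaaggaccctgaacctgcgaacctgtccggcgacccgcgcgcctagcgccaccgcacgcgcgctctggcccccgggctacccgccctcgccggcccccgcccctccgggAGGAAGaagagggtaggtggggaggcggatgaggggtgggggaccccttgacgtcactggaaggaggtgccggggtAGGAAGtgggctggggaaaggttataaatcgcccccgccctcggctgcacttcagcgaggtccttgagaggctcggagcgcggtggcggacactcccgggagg
Adamts1: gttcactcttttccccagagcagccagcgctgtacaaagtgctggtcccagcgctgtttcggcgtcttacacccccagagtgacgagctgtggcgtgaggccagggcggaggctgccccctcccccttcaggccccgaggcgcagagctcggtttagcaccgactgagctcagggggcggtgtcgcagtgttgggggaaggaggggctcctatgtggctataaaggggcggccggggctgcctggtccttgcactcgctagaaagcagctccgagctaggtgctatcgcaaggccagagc

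The Flt1 window held AGGAAG at 2 places, and those of Kdr and Adamts1 held neither motif. Over the 9 windows AGGAAG was found in 4, from 3 of the 7 genes (Flt1, Eng and Egfl7), and CGGAAG in 0. The shorter core GGAA was in 8 of the 9 windows, Kdr with 5 and Adamts1 with 2 places included, and in 96.0% of all promoters. Among all 32544 promoters, 35.1% held AGGAAG, 17.0% CGGAAG and 46.3% either. ACAAT, the core of SOX factors, was in 1 of the 9 windows, that of Tek, and in 30.8% of all promoters. The core of hypoxia response elements has an A or a G before CGTG. ACGTG was in 0 of the 9 windows and in 19.7% of all promoters. GCGTG was in 4 of the 9 windows (from Kdr, Flt1, Egfl7 and Adamts1) and in 32.6% of all promoters. Both strands were searched, and the longer ETS forms each contain GGAA and differ from each other in their first letter. GGAA and GCGTG were added after the windows had been read.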

How the data were processed

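RNA of retinas was sequenced by the authors as stranded TruSeq libraries, pseudoaligned with Kallisto to Ensembl transcripts (v115 in the paper, GRCm39 per the labels) and imported with tximport. The deposited values used here are estimated counts per gene (11702 genes) and per transcript (275112 transcripts), without scaling. How genes were chosen for the gene table and the tools' versions are not given in the sources used here. The deposited CPM table, a signal scaled by the authors with 1 factor per library, served only as an alternative for levels. The authors' table of their own comparison was not used.

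Gene symbols were looked up in a reference table, with 11492 identifiers found. GENCODE M21 transcripts (GRCm38), matched without versions, held 97.4% to 97.7% of each library's counts and gave gene sums, lengths and GC content. Promoters came from RefSeq (GRCm38.p6).

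Counts were made whole by rounding, kept by filterByExpr, scaled by TMM and tested with the quasi-likelihood test of edgeR 4.0.16 in R 4.3.3 with Benjamini-Hochberg adjustment over all genes, called at an adjusted p under 0.05. Standard errors come from the F statistic. Log2 CPM had a prior count of 2. Fits were tested on simulated counts. The exact permutation tests (scipy 1.17.1) were two-sided over libraries. Alternatives were DESeq2 1.42.0 and its size factors, limma-voom (limma 3.58.1), no filter or a filter at 5 CPM, all 10 libraries, a batch term, a GC trend removed (lowess span 0.3), scaling on inner neuron genes and leaving out each library. Transcript sums, and that scaling without WT W4, were added after the data were seen.

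The members and gene lists were chosen with earlier results of these data known. The text names all members, up to 3 genes per other list by p-value, genes that counts of 5 or fewer refer to, and the 10 most alike.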

Additional observations from a re-analysis of the deposited data

Results flagged for a closer look

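In the WT DMSO group of 4 libraries, 3 of the 10 endothelial genes had 1 library far from the others, by the ratio of its gap to the group's range against Dixon's 95% critical value. The ratio was 0.945 for Kdr, 0.925 for Adamts1 and 0.844 for Flt1, and in each the library was the one labelled WT W4, on the high side. Chance would give about 0.5 of 10 genes, but the same library stood apart in this way for 28.2% of all 11702 genes, 16.6% on the high side, so that 3 of 10 is not set apart from that general difference. Pde6b in that library was at 93.1 CPM against 2699 to 2855 CPM in W1 to W3.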

How the results depend on the processing

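Called genes out of those tested were counted under each alternative, and the cause of a change was not tested unless it lies in the samples left out. In halofantrine against DMSO, 0 of 8 endothelial genes were called under all alternatives run. All genes called were 3 by DESeq2 and 0 to 7 with 1 library left out. In rd10 DMSO against WT, called genes rose from 0 to 589 by DESeq2 and to 1 on transcript sums, and lay between 0 and 7280 with 1 library left out, 7280 being without WT W4, where 0 to 4 endothelial genes were called. Without WT W4, scaling on inner neurons gave 9140 genes and 3 endothelial genes, and transcript sums 9078 and 4 of 10. In rd10 HAL against WT, called genes were 1 in the fit reported, 2221 by DESeq2 with 3 endothelial genes (Cldn5, Egfl7 and Eng), 0 by limma-voom, with all 10 libraries and with a batch term, and 0 to 8408 with 1 library left out (8408 without WT W4), where 0 to 7 endothelial genes were called. Without WT W4, inner neuron scaling gave 9810 genes and 3 endothelial genes, and transcript sums 10679 and 8 of 10.

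In batch 2 against batch 1, called genes numbered 542, against 1419 by DESeq2 (2 endothelial genes), 0 with all 10 libraries (0), 218 without a treatment term (0), 91 to 2638 with 1 library left out (0 to 2), 91 being without D3 and 2638 without H1, and 2 endothelial genes on the inner neuron scale.

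Signs changed for small fold changes. For Pecam1 in rd10 DMSO the value was -0.040 by limma-voom, -0.15 with a batch term, -0.37 on the inner neuron scale, -0.52 on that scale without WT W4, and -0.14 to 0.22 with 1 library left out. In rd10 HAL it was -0.023 with a batch term, -0.33 on the inner neuron scale and -0.49 on that scale without WT W4. On the inner neuron scale with and without WT W4, rd10 DMSO gave -0.12 and -0.23 for Eng, -0.0049 and -0.090 for Egfl7 and -0.18 and -0.28 for Cldn5, and rd10 HAL -0.0078 and -0.14 for Eng and, without WT W4, -0.088 for Egfl7. In the batch comparison Esam was 0.035 with the GC trend removed, 0.074 on the inner neuron scale and 0.012 without a treatment term, Adamts1 -0.096 without that term, and Cldn5 0.041 by limma-voom, 0.17 with the GC trend removed, 0.00046 on the inner neuron scale and 0.17 without a treatment term.

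With 1 library left out, the range was -0.033 to 0.33 for Egfl7 and -0.13 to 0.25 for Kdr in halofantrine against DMSO, and -0.045 to 0.035 for Esam, -0.059 to 0.13 for Adamts1 and -0.57 to 0.34 for Cldn5 in the batch comparison. Of the values of single genes under alternatives, 489 kept their sign and side of the threshold, 34 changed sign, 34 came to pass and 7 no longer did. All 24 levels taken from the authors' CPM stayed within the spread between libraries. No paired analysis was possible because the labels pair no library of one group with one of another. Counts of 62 to 470 per library for the genes below Esam limit what can be seen there.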
